A study of Homo sapiens with 8 samples.

Results

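This report describes 43 interferon-stimulated genes in A498 and 786-O cells after knockdown of the lincRNA SLINKY. They are the 43 genes of a fixed list, found among 18693 genes with a coding RefSeq entry, and the FPKM values (read fragments scaled to transcript length and library size) of the coding entries of each gene were summed in every library. All 43 had an entry, and 41 of them were among the 10503 genes with a mean of at least 1 FPKM, the level required for testing. XAF1 and CMPK2 were not, for a reason given with their values below.

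A498 and 786-O are established lines of clear cell renal cell carcinoma (ccRCC), and each is a single line, so a difference between them cannot be told apart from the culture medium (DMEM for A498, RPMI-1640 for 786-O) or from any other difference in origin. Cells of each line received 50 nM of a non-targeting control (NTC) siRNA, of SLINKY siRNA #1 or of SLINKY siRNA #2 with a lipid reagent. The time given for the transfection is 16 hours. It is not the time of harvest, since the study's methods state a separate, longer time from transfection to RNA isolation. The labels call all the siRNAs pools, whereas the study's methods describe the SLINKY siRNAs as separate single designs and the NTC as a pool, so NTC and SLINKY siRNAs may differ in composition too. Each line has 2 NTC libraries and 1 library for each SLINKY siRNA, 8 libraries in all. No untransfected or interferon-treated cells were analysed here, so every library shares the exposure to siRNA and lipid. Nothing in the labels says whether the NTC libraries came from separate cultures, and p-values therefore measure only the spread between these libraries.

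Estimated depth ranged from 25135047 mapped reads (A498 with siRNA #2) to 64705700 (the second 786-O NTC library). SLINKY itself was at 14.6 and 16.1 FPKM in the A498 NTC libraries, 1.64 with siRNA #1 and 3.01 with siRNA #2. In 786-O it was at 1.45 and 1.39 FPKM with NTC, 0.0569 with siRNA #1 and 0.594 with siRNA #2, so all 4 knockdown libraries lay below the NTC libraries of their line. The kidney factor PAX8 was present in both lines (39.2 to 48.1 FPKM over the 8 libraries), as were KRT8, KRT18 and VIM. PAX2 was at 1.06 to 1.84 FPKM, and the ccRCC marker CA9 was nearly absent, at 0.293 to 0.559 FPKM in A498 and 0 to 0.0229 in 786-O. The leukocyte genes PTPRC and CD3E were listed at 0 in every library. CD68, a lysosomal protein used as a macrophage marker, was at 138 to 151 FPKM in A498 and 1.70 to 5.20 in 786-O.

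Type I and type III interferons are secreted when a cell senses foreign nucleic acid, and transfected RNA can itself be sensed in this way. They bind the IFNAR1/IFNAR2 or the IFNLR1/IL10RB receptor, whose kinases JAK1 and TYK2 activate STAT proteins. STAT2 and IRF9 are parts of a complex that binds a DNA element called ISRE in the promoters of interferon-stimulated genes, while another element called GAS is best known from the response to interferon gamma. The induced proteins block viral entry, RNA synthesis and translation, and several of them amplify the response.

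The upstream promoter sequence of 5 of the genes with an ISRE and of IRF1 is shown because the ISRE is the element through which interferon is known to act on such genes. Sequences are from RefSeq (GRCh38.p14), read in the direction of transcription, and each covers the 100 bases from position -150 to -51 before the annotated start. Capitals mark every match to the ISRE core GAAANNGAAA or its reverse complement, and in IRF1 the match to the GAS core TTCNNNGAA, which reads alike on both strands. Overlapping matches appear as 1 run of capitals.
ISG15 (chr1:1013347-1013446, plus strand): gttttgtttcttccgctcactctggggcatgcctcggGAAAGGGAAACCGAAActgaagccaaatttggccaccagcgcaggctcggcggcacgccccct
IFIT1 (chr10:89392473-89392572, plus strand): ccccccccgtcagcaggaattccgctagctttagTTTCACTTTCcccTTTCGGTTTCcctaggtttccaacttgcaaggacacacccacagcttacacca
IFI6 (chr1:27672243-27672342, minus strand): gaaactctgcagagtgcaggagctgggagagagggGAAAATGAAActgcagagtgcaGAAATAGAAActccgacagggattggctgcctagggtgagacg
IFI27 (chr14:94110586-94110685, plus strand): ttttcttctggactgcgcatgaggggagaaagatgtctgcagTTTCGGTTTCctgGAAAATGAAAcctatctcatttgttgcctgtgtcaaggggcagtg
BST2 (chr19:17405681-17405780, minus strand): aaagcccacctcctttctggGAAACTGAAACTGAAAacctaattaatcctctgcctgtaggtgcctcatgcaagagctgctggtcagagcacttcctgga
IRF1 (chr5:132490824-132490923, minus strand): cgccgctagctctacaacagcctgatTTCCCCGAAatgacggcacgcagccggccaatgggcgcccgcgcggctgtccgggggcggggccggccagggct
Each of the first 5 held 2 matches in this stretch. A RefSeq promoter (250 bases before to 50 after the start) was found for 35 of the 43 genes, and 24 of them (68.6%) held an ISRE core in at least 1 promoter, against 4.38% of all 27305 genes with a promoter. For the GAS core the numbers were 12 of 35 (34.3%) against 9.38%. The 11 genes without the ISRE core letters in these windows were OAS1, CMPK2, SAMD9L, UBE2L6, HERC6, STAT2, IRF1, IRF9, SP110, IFI35 and XAF1.

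For 41 of the 43 genes, and 40 of the 41 tested, every A498 library lay above every 786-O library, against 37.7% of all tested genes. Of the 41 tested, 11 were under 1 FPKM in 786-O and were tested only through A498, which favours that order. The exceptions, IFITM3 and XAF1, followed the same order once their noncoding entries were added. By coding entries the highest in A498 were IFI27, a mitochondrial protein, and ISG15, a ubiquitin-like modifier. IFI27 was at 1396 and 1228 FPKM in the A498 NTC libraries, 1239 with siRNA #1 and 1227 with siRNA #2, against 9.32, 8.11, 9.63 and 8.96 in the same order in 786-O. ISG15 was at 1029.6, 916, 878 and 866 FPKM in A498 and at 138, 154, 169.7 and 139.8 in 786-O. The promoters of both hold a pair of ISRE cores, and the groups did not overlap for either gene.

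**Figure D1:**
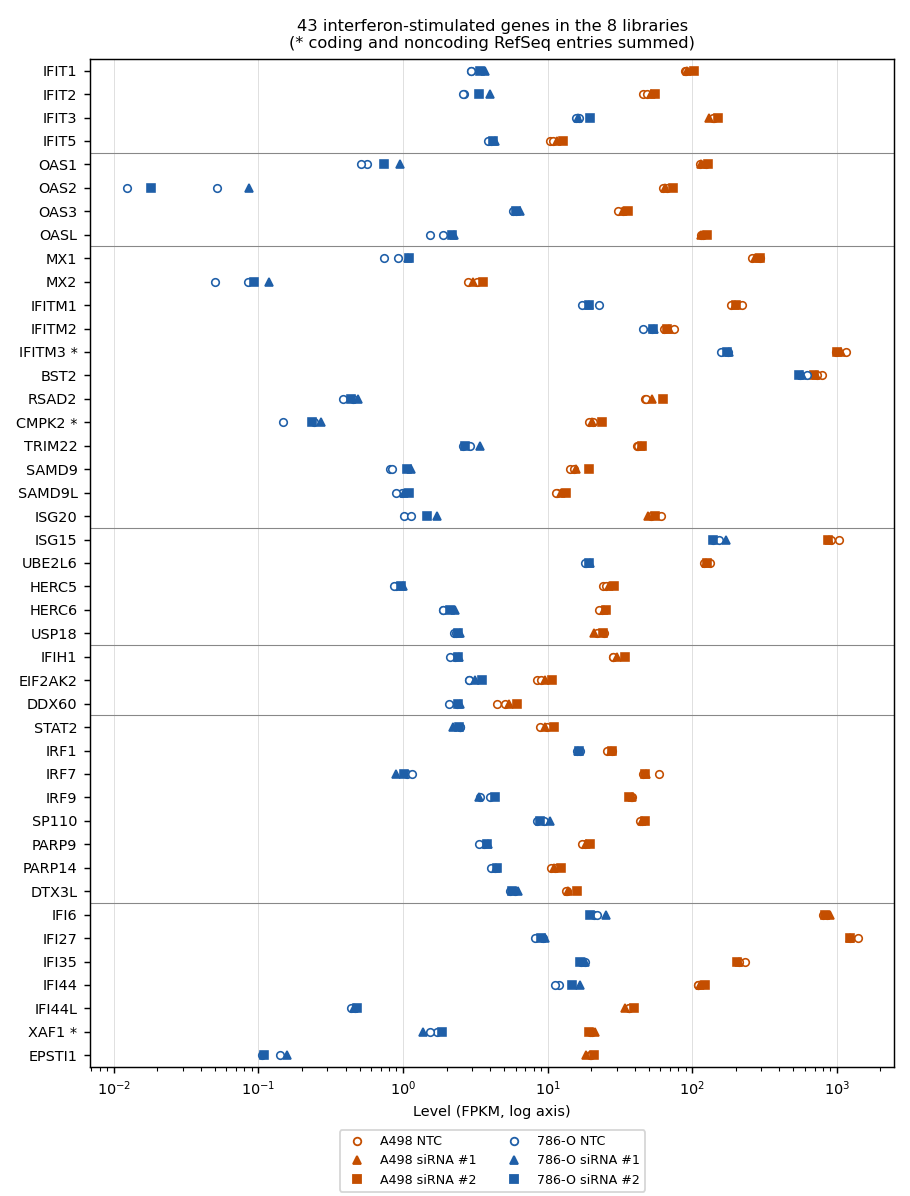
Level in FPKM (log axis) of each of the 43 genes in the 8 libraries, ordered by role and separated by lines into IFIT, OAS, membrane and replication block, ISG15 system, RNA sensors, transcription factors and cofactors, and other induced genes. Orange marks A498 and blue 786-O, open circles are NTC, triangles siRNA #1 and squares siRNA #2, the genes with an asterisk are shown with coding and noncoding entries summed, and for every gene the A498 libraries lie to the right of the 786-O libraries, with IFI27 near 1273 FPKM on average in A498 and OAS2 near 0.0422 in 786-O.

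A498 was compared with 786-O by limma over all 8 libraries, with the knockdown as a covariate, on log2(FPKM + 0.1). Of the 41 tested genes 40 were higher in A498 at an adjusted p under 0.05, against 40.6% of all tested genes, and none was lower, against 42.5% of all tested genes. The median log2 difference of the 41 genes was 3.48, and that of all 10503 tested genes was -0.02. A log2 difference of at least 3, that is 8-fold, was reached by 26 of 41 genes (63.4%) and by 4.55% of all tested genes. Of the 41 genes, 11 were under 1 FPKM in 786-O and reached the level for testing only through A498, so these had to differ. Among genes with a mean of at least 1 FPKM in each line, a filter chosen after the data had been seen, all 30 remaining members were higher, with a median log2 difference of 3.05, and 37.4% of all 9470 genes were. With the 4 NTC libraries alone the median of the genes was 3.48 and 40 of 41 again passed the test, so the difference was as large without any knockdown library. These NTC libraries were chosen as a separate comparison after the data had been seen.

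**Figure D2:**
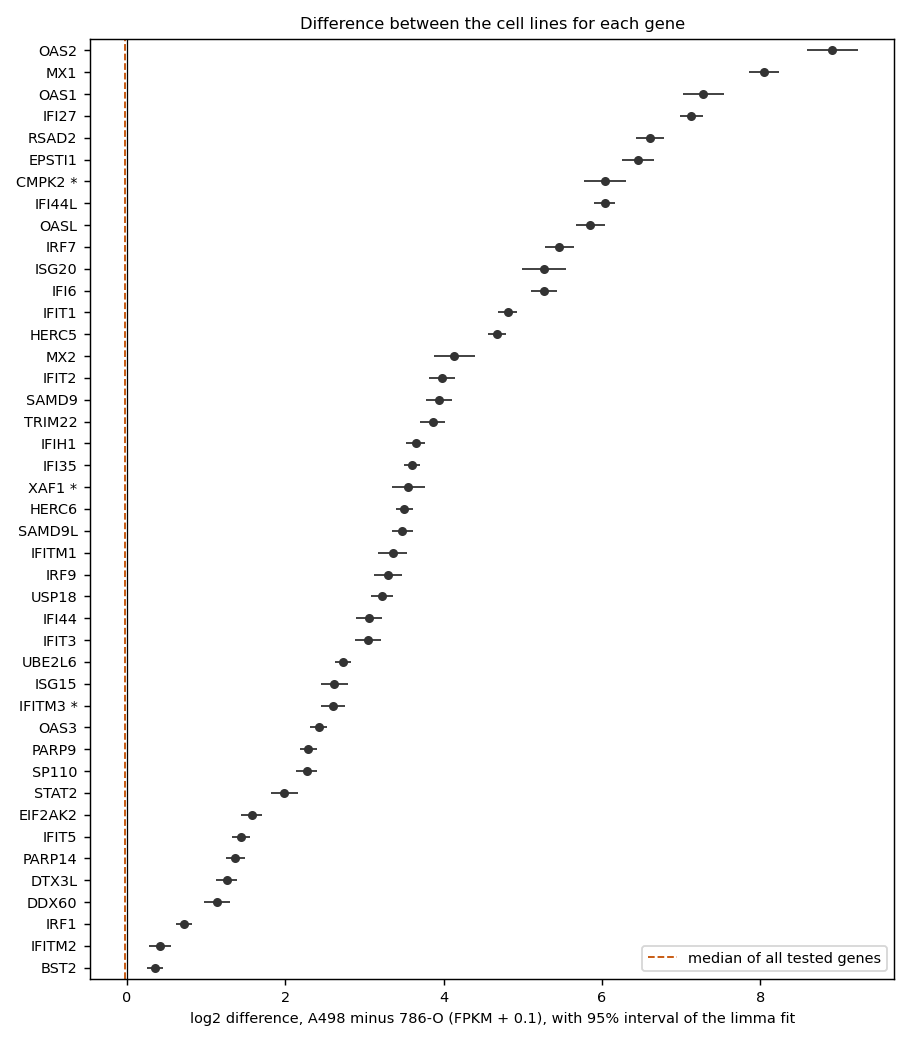
log2 difference in FPKM + 0.1 between A498 and 786-O for each of the 43 genes, with the 95% interval of the limma fit; genes with an asterisk are shown with coding and noncoding entries summed. All 43 lie above 0, from 0.36 for BST2 to 8.91 for OAS2, while the dashed line at -0.02 is the median of all tested genes.

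The OAS enzymes, which make the oligoadenylate that activates RNase L, held the largest difference. OAS2 was at 66.4, 63.1, 64.4 and 73.4 FPKM in A498 (NTC, NTC, siRNA #1, siRNA #2) and at 0.0521, 0.0123, 0.0861 and 0.0182 in 786-O. Its log2 difference was 8.91 (SE 0.14, limma adjusted p = 1.33e-11), but its 786-O levels lie under the added 0.1 FPKM, so its size depends on that value. With 1 FPKM added it was 6.02. OAS1 was at 124, 113, 115 and 128 FPKM against 0.562, 0.511, 0.947 and 0.744, a log2 difference of 7.28 (SE 0.11, adjusted p = 1.17e-11). OASL, a family member without that enzyme activity, had a log2 difference of 5.85 (SE 0.08). OAS3, the largest of these proteins, was the exception in size, at 30.5 to 35.7 FPKM in A498 and 5.75 to 6.47 in 786-O, which is a log2 difference of 2.42 (SE 0.05).

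The IFIT proteins bind viral RNA caps and the translation machinery. IFIT1 was at 89.6, 90.9, 92.5 and 102 FPKM in A498 and at 2.94, 2.97, 3.71 and 3.39 in 786-O, a log2 difference of 4.81 (SE 0.05). The deposited files mark the estimate of IFIT1 as failed in the A498 library with siRNA #2. IFIT2 and IFIT3 differed by 3.98 (SE 0.07) and 3.05 (SE 0.07) on the log2 scale. IFIT5, which was at 10.3 to 12.7 FPKM against 3.84 to 4.32, differed by 1.45 (SE 0.05). All 4 were called higher in A498, against 40.6% of all tested genes, with IFIT5 far below the others in its difference.

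Among the membrane proteins and blockers of replication, the dynamin-like GTPase MX1 stood at 292, 257, 272 and 293 FPKM in A498 and at 0.927, 0.744, 1.08 and 1.10 in 786-O. Its log2 difference was 8.05 (SE 0.08, limma adjusted p = 1.62e-12). MX2, which acts on incoming retroviral capsids, was low even in A498, at 2.81 to 3.55 FPKM against 0.0499 to 0.119, with a log2 difference of 4.13 (SE 0.11). The radical-SAM enzyme RSAD2 differed by 6.61 (SE 0.08) and the exonuclease ISG20 by 5.27 (SE 0.12). TRIM22, SAMD9 and SAMD9L lay between 3.48 and 3.86. For TRIM22 the deposited files mark the estimate as failed in every A498 library, although an FPKM value is given there (41.1 to 44.8).

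The smallest differences of the 43 genes were found in the same role group. BST2, the tetherin that holds budding virus at the cell surface, was high in both lines, at 790.2, 729, 720.2 and 698 FPKM in A498 and 552, 619, 577 and 546 in 786-O. Its log2 difference was 0.36 (SE 0.05, limma adjusted p = 3.98e-05), and the lines did not overlap. The promoter of BST2 printed above holds overlapping ISRE cores like that of ISG15, whose difference was 2.62 (SE 0.08). IFITM2, which blocks fusion of virus with endosomes, was at 64.2 to 74.5 FPKM against 45.4 to 54.6, a log2 difference of 0.42 (SE 0.06, adjusted p = 1.58e-04). Its neighbour on chromosome 11, IFITM1, was at 186 to 221 FPKM against 17.2 to 22.5, a log2 difference of 3.36 (SE 0.08).

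IFITM3, XAF1 and CMPK2 show how the entry chosen decides a value. In the deposited files most of their reads were assigned to a noncoding RefSeq entry of the same gene. The coding entry of IFITM3 was at 3.84, 0.000510, 5.78 and 0.000749 FPKM in the A498 libraries, and the gene was the only one of the 41 tested that did not pass (log2 difference 2.79, SE 1.30, adjusted p = 0.0707). With the noncoding entry added it was at 1158, 983, 1072 and 1001 FPKM in A498 and at 159, 177, 179.7 and 175 in 786-O, a log2 difference of 2.61 (SE 0.06, adjusted p = 1.82e-08). CMPK2, a mitochondrial nucleotide kinase beside RSAD2, was at 19.4 to 23.8 FPKM against 0.149 to 0.270 when its noncoding entry was added, and its log2 difference was 6.04 (SE 0.11). XAF1, an apoptosis factor, was then at 19.3 to 21.2 FPKM against 1.37 to 1.86 and differed by 3.56 (SE 0.09). With these entries all 43 genes were tested and all 43 passed, each higher in A498. The IFITM genes are close paralogs whose shared reads the counting can split, so their levels are uncertain.

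The ISG15 system comprises the modifier ISG15, the conjugating enzyme UBE2L6, the ligase HERC5 and its relative HERC6, and the protease USP18, which removes ISG15 and damps the receptor. All 5 were higher in A498, against 40.6% of all tested genes, with a median log2 difference of 3.22. HERC5 differed most at 4.67 (SE 0.05), with 24.2 to 29.0 FPKM in A498 and 0.872 to 0.997 in 786-O. The RNA sensors differed less evenly. IFIH1, the sensor MDA5, was at 28.1 to 34.1 FPKM against 2.11 to 2.44 (log2 difference 3.65, SE 0.05), while the kinase EIF2AK2, also called PKR, differed by 1.58 (SE 0.06) and the helicase DDX60 by 1.14 (SE 0.07).

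Of the 8 transcription factors and cofactors all were called higher in A498, against 40.6% of all tested genes, with a median log2 difference of 2.13. IRF7, the factor that amplifies interferon genes, was at 58.8, 45.5, 47.7 and 47.4 FPKM in A498 and at 1.06, 1.16, 0.896 and 1.02 in 786-O, a log2 difference of 5.46 (SE 0.08, limma adjusted p = 8.25e-12). IRF9 differed by 3.29 (SE 0.08) and STAT2 by 1.99 (SE 0.08). IRF1, whose printed promoter holds a GAS core and no ISRE core, was at 25.5 to 27.9 FPKM against 16.0 to 16.7, a log2 difference of 0.72 (SE 0.04). PARP9, PARP14 and their partner DTX3L differed by 1.26 to 2.29.

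The tested genes of the remaining induced group ranged from 3.06 to 7.13 in log2 difference. Besides IFI27 (log2 difference 7.13, SE 0.06), EPSTI1 was at 18.5 to 21.0 FPKM in A498 and 0.105 to 0.158 in 786-O (log2 difference 6.45, SE 0.09), and IFI44L at 34.4 to 39.7 against 0.439 to 0.480 (log2 difference 6.03, SE 0.06). IFI6, a mitochondrial and endoplasmic reticulum protein with 2 of its ISRE cores printed above, was at 797 to 897 FPKM against 19.5 to 25.1 and differed by 5.27 (SE 0.07). IFI44 differed by 3.06 (SE 0.07), and IFI35 by 3.60 (SE 0.05). The median log2 difference was 3.21 for the 24 tested genes with the ISRE core and 3.29 for the 9 tested genes with a promoter and without it. Only the exact core letters were searched. Genes without a promoter found are left out, as are CMPK2 and XAF1, and IFITM3 counts by its coding entry. Whether the element has a part in the differences was not tested.

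Upstream of these genes, the ligands were detected in A498. IFNB1, the gene of interferon beta, was at 4.07 and 3.94 FPKM in the A498 NTC libraries, 4.26 with siRNA #1 and 5.24 with siRNA #2, which corresponds to 410 reads over the line, whereas 2 reads were found over the 4 libraries of 786-O. At equal depth this is a ratio of 252 with a 95% exact binomial interval of 69.3 to 2087, which covers counting error only. The lambda interferon IFNL1 was at 1.55, 1.63, 1.64 and 1.52 FPKM in A498 (25 to 54 reads) and had no read in 786-O. Against a floor of 3 reads per library it was at least 15.1-fold higher in A498. IFNL2 and IFNL3, a nearly identical pair, had 5 to 15 reads in each A498 library and none in 786-O. IFNA1, IFNA2, IFNK and IFNG had no read in any library.

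The receptors and their kinases differed in both directions. IFNAR1 was at 8.44 to 9.54 FPKM in A498 and 6.32 to 7.44 in 786-O (log2 difference 0.38, SE 0.06), and IFNAR2 was slightly lower in A498 (log2 difference -0.12, SE 0.05, limma adjusted p = 0.0442). IFNLR1, the specific chain of the lambda receptor, was at 0 to 0.0134 FPKM in A498 and at 0.277 to 0.383 in 786-O, too low to be tested, and its partner IL10RB was present in both (log2 difference 0.89, SE 0.04). IFNGR2, a chain of the interferon gamma receptor, was at 67.1 to 73.5 FPKM in A498 and 25.6 to 28.3 in 786-O (log2 difference 1.397, SE 0.05). JAK1 was lower in A498 (log2 difference -0.39, SE 0.04) and TYK2 higher (0.56, SE 0.05).

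**Figure D3:**
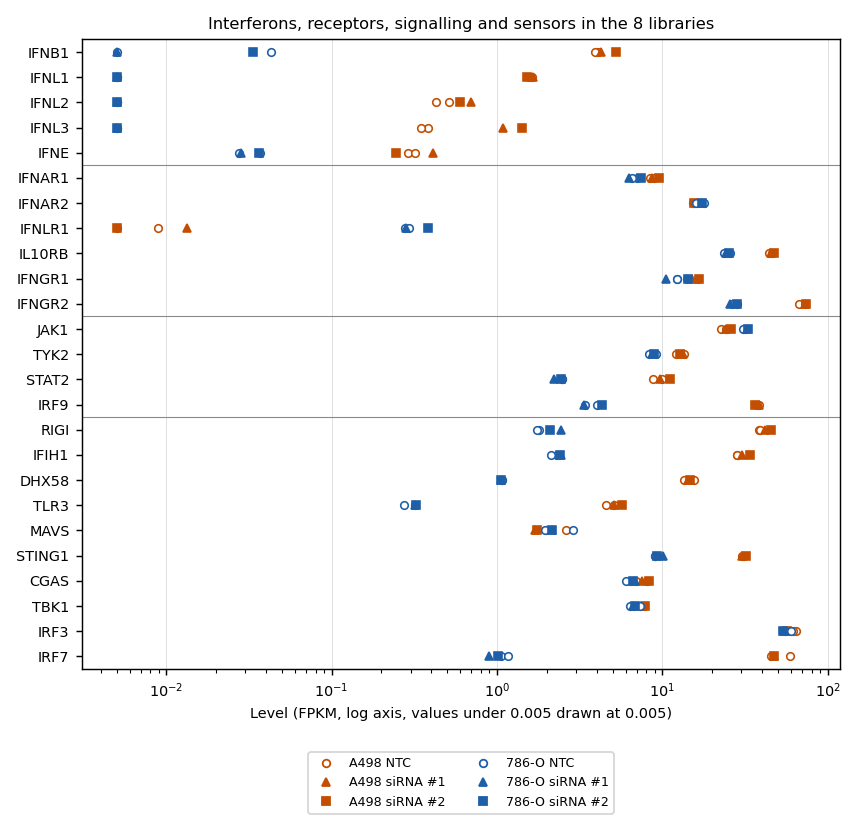
Level in FPKM (log axis, values under 0.005 drawn at 0.005) of interferons, receptors, signalling proteins and sensors in the 8 libraries, with colours and symbols as in the plot of the 43 genes. The interferons IFNB1 and IFNL1 and the sensors RIGI, IFIH1, DHX58 and TLR3 are separated between the lines, whereas IFNAR1, IFNAR2, MAVS, TBK1 and IRF3 lie close together.

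Of the 13 nucleic acid sensors and adaptors, 9 were tested and 7 were higher in A498, against 40.6% of all tested genes. RIGI, the sensor RIG-I, was at 38.2 to 45.2 FPKM against 1.74 to 2.44 (log2 difference 4.29, SE 0.06). DHX58 differed by 3.65 (SE 0.06), the endosomal receptor TLR3 by 3.67 (SE 0.08) and STING1 by 1.71 (SE 0.04). TLR3 was at 0.272 to 0.322 FPKM in 786-O and was tested only through A498, so it had to differ. ADAR, MYD88 and CGAS had smaller differences of 1.03, 1.19 and 0.25, and the adaptors MAVS and TICAM1 did not pass. Of the 7 kinases and factors of induction, 4 were higher (IRF2, IKBKE, TRAF6 and IRF3, with IRF2 the highest at 1.57) and IRF5 was lower. The shares of all tested genes were 40.6% higher and 42.5% lower. TRAF6, at 0.702 to 0.974 FPKM in 786-O, was tested only through A498. TBK1 and TRAF3 did not pass the test, with log2 differences of 0.13 and -0.06.

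Of 9 genes for JAK-STAT signalling and its inhibitors, 5 were higher and 3 lower in A498, against 40.6% and 42.5% of all tested genes. The inhibitors SOCS1 and SOCS3, which are induced by cytokines, were higher (log2 differences 1.09 and 1.66), as were JAK2 and STAT3 (1.30 and 1.35), and the phosphatases PTPN2 and PTPN11 were lower (-1.43 and -0.48). Of 8 genes listed as interferon gamma-type targets, 5 were tested. All were higher in A498, against 40.6% of all tested genes, namely CCL5 (6.59), CXCL10 (5.50), CXCL11 (5.32), GBP2 (1.96) and GBP1 (0.79). The others, CIITA, CXCL9 and IDO1, were too low to be tested. Which signal acts on these genes was not tested. Of the kidney and ccRCC markers, 3 of 6 tested were higher and 3 lower, near the shares of all tested genes. Their differences ran from -1.28 for CDH6 to 0.56 for KRT18. CD68 was higher in A498 too (log2 difference 5.47, SE 0.31), while PTPRC and CD3E were at 0. Whether the gene groups that differ between the lines share a source was not tested.

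The second question was whether the SLINKY siRNAs differ from the NTC siRNA in interferon response. No single gene of the 41 passed the test in any knockdown comparison, and the changes were small, but most of them were positive. In the fit over both lines, with the line as a covariate, 0 of 41 genes were called against 0.0% of all tested genes, and 16 of 41 had an unadjusted p under 0.05, all with a positive change, against 11.9% of all tested genes (1249 genes). The log2 change was above 0 in 36 of 41 genes (87.8%) and in 55.2% of all tested genes. Its median was 0.11 for the 41 genes and 0.01 for all, and the smallest adjusted p of a member was 0.291. Against the NTC mean of its line, 25 of 41 genes were above 0 with siRNA #1 in A498 and 29 with siRNA #2. In 786-O these counts were 35 and 28. The NTC libraries, themselves part of that mean, had 28 and 13 in A498 and 26 and 15 in 786-O. All genes come from the same 8 libraries, so counts of genes are not independent evidence.

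IFIT2 had the largest change of the 41. It was at 45.8 and 48.5 FPKM in the A498 NTC libraries, 52.0 with siRNA #1 and 55.4 with siRNA #2, and in 786-O at 2.63 and 2.60, then 3.98 and 3.38. Both knockdown libraries lay above both NTC libraries in each line, and the log2 change over both lines was 0.33 (SE 0.07, 95% interval 0.16 to 0.49, limma adjusted p = 0.291). SAMD9, a translation inhibitor, was at 14.2, 15.3, 15.7 and 19.2 FPKM in A498 and at 0.811, 0.833, 1.13 and 1.06 in 786-O, with a log2 change of 0.31 (SE 0.07, adjusted p = 0.291). EIF2AK2 was at 8.42, 8.96, 9.59 and 10.7 FPKM and at 2.84, 2.85, 3.17 and 3.51, with a log2 change of 0.22 (SE 0.06, adjusted p = 0.308). In these genes, too, the groups did not overlap in either line.

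The change of OAS1 lay mostly in 786-O, although the difference between the lines did not pass its test. Its A498 values given above overlapped between NTC and knockdown, and only the 786-O knockdown values lay above NTC, so that its log2 change was 0.04 in A498 and 0.56 (SE 0.14) in 786-O and 0.30 (SE 0.11, limma adjusted p = 0.395) over both. IFI44 was at 110.1, 110.1, 112 and 122 FPKM in A498 and at 12.0, 11.3, 16.7 and 14.7 in 786-O, a log2 change of 0.25 (SE 0.07, adjusted p = 0.335). MX2, OASL and DDX60 completed the 8 largest changes at 0.21, 0.21 and 0.21, with adjusted p of 0.485, 0.395 and 0.390. In 786-O, MX2 rested on 5 to 15 reads a library.

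By role, the RNA sensors (median log2 change 0.21), the OAS family (0.17), the IFIT family (0.17) and the membrane and replication block (0.16) had the higher medians over both lines. The transcription factors and cofactors (0.05), the ISG15 system (0.03) and the other induced genes (0.03) had the lower ones. IRF7 had the lowest change of the 41, -0.16 (SE 0.08), with values in 786-O of 1.06 and 1.16 FPKM with NTC against 0.896 and 1.02. The most abundant genes moved little, with changes of 0.0038 for IFI27 (SE 0.06), -0.04 for ISG15 (SE 0.08) and -0.08 for BST2 (SE 0.05). IFITM3 had a change of 0.02 (SE 0.06) when its noncoding entry was added, and CMPK2 and XAF1 0.20 (SE 0.11) and 0.00098 (SE 0.09). IFIT1 (0.18), IFIT3 (0.08), IFIT5 (0.15), OAS2 (0.14), OAS3 (0.10), MX1 (0.20), IFITM1 (-0.03) and IFITM2 (0.06) complete the families.

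Within A498, 0 of 41 genes were called, against 0.0286% of all tested genes, and the median log2 change was 0.09 (all tested genes 0.01), with 29 of 41 above 0. Without the siRNA #2 library it was 0.02, and without the second NTC library 0.03. Without siRNA #1 or without siRNA #2, 1 gene was called, which was IFITM3 through its coding entry alone (log2 change -2.64 and 3.22). ISG15 was the only gene with an unadjusted p under 0.05 and a negative change (-0.16, SE 0.07, limma adjusted p = 0.808), at 1029.6 and 916 FPKM with NTC and 878 and 866 with knockdown. The largest positive changes apart from IFITM3 were those of DDX60 (0.27, SE 0.11) and RSAD2 (0.27, SE 0.09), the latter at 47.3 and 47.8 FPKM with NTC, 52.4 with siRNA #1 and 63.1 with siRNA #2.

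Within 786-O, 0 of 41 were called against 0.0% of all tested genes, with a median of 0.12 (all tested genes 0.01) and 36 of 41 above 0. Without the second NTC library the median was 0.079. The lowest unadjusted p values belonged to IFI44 (log2 change 0.42, SE 0.09), ISG20 (0.52, SE 0.12), IFIT2 (0.47, SE 0.11), OAS1 (0.56, SE 0.14) and SAMD9 (0.38, SE 0.10), each with a limma adjusted p of 0.969. ISG20 was at 1.02 and 1.13 FPKM with NTC, 1.70 with siRNA #1 and 1.47 with siRNA #2. In the test of the difference between the lines, 0 of 41 genes were called, against 0.00952% of all tested genes. ISG20 had the lowest p there, with a change in A498 minus that in 786-O of -0.62 (SE 0.15, adjusted p = 1.00). The difference between lines in OAS1 was -0.52 (SE 0.16) and did not pass either.

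**Figure D4:**
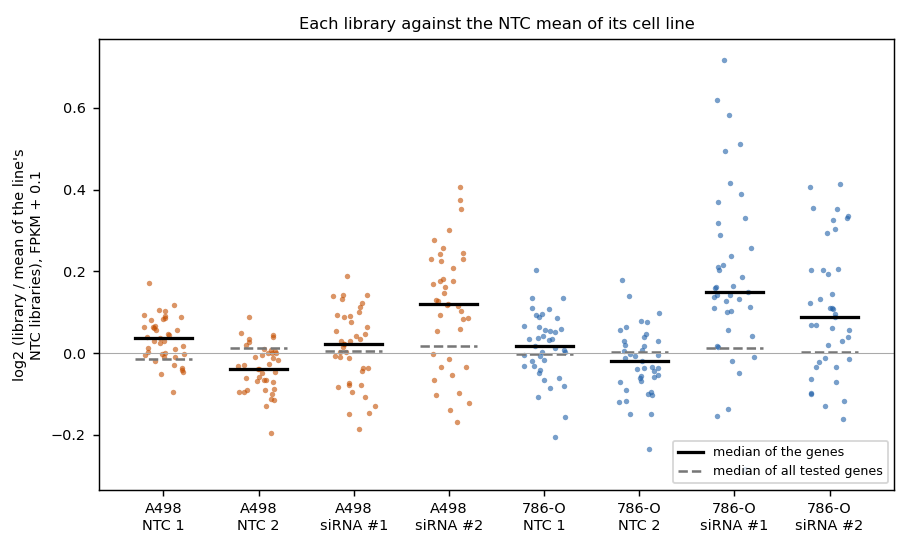
log2 ratio of each library to the mean of the NTC libraries of its line (FPKM + 0.1) for 40 of the tested genes (IFITM3 is not drawn, since its coding entry holds few reads). Solid lines are the medians of the 41 tested genes and dashed lines those of all tested genes, and the medians of the genes are 0.02 and 0.12 for siRNA #1 and #2 in A498, 0.15 and 0.09 in 786-O, and between -0.04 and 0.04 for the NTC libraries.

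Each knockdown library was also set against the NTC mean of its line counting genes at least 25% higher or at least 20% lower, a comparison of 1 library without a replicate check. With siRNA #1 in A498, 1 of 41 genes was higher by this measure, against 1.39% of all tested genes, and 0 were lower, against 2.42% of all tested genes. That gene was IFITM3, which was no longer counted once its noncoding entry was added. With siRNA #2 in A498, 3 of 41 were higher (RSAD2, SAMD9 and DDX60), against 2.37% of all tested genes, and only IFITM3 was lower, against 3.12% of all tested genes.

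More genes passed in 786-O. With siRNA #1, 9 of 41 (22.0%) were higher, against 3.15% of all tested genes, and 0 were lower, against 2.76% of all tested genes. These were IFIT2, OAS1, OAS2, OASL, MX1, MX2, SAMD9, ISG20 and IFI44. With siRNA #2, 7 of 41 (17.1%) were higher, against 2.18% of all tested genes, and 0 lower, against 1.74% of all tested genes. They were IFIT2, OAS1, OASL, MX1, SAMD9, ISG20 and IFI44. Both counts rest on the same pair of NTC libraries. OAS1, OAS2, MX1, MX2 and SAMD9 were under 1 FPKM in 786-O and were tested only through their A498 level, so these shares and those of all genes are not alike in how the genes were admitted. Among the genes with at least 1 FPKM in each line, 4 of 30 members (IFIT2, OASL, ISG20 and IFI44) were higher with siRNA #1, against 2.22% of 9470 genes, and the same 4 with siRNA #2, against 1.57%. With 1 FPKM added in place of 0.1 the counts among the 41 genes in 786-O were 4 with siRNA #1 and 0 with siRNA #2. OAS1, MX1, SAMD9 and ISG20 lie near 1 FPKM there, where the added value weighs most. With siRNA #2, IFIT2, OASL and IFI44 were lost as well, although IFI44 was at 14.7 FPKM. Their log2 ratios to the NTC mean with 0.1 FPKM added were 0.354, 0.330 and 0.327, close to the limit of the count.

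In A498, both knockdown libraries lay above both NTC libraries for 16 of 41 genes (39.0%), against 20.7% of all tested genes, and below them for 3 (BST2, ISG15 and IFI35), against 16.7% of all tested genes. In 786-O this held for 21 of 41 genes above (51.2%), against 19.0% of all tested genes, and for 2 below (STAT2 and IRF7), against 13.8% of all tested genes. In both lines at once, 12 of 41 genes (29.3%) were above, against 6.75% of all tested genes. They were IFIT1, IFIT2, IFIT5, SAMD9, SAMD9L, HERC5, HERC6, IFIH1, EIF2AK2, DDX60, PARP9 and IFI44. No gene was below in both lines, against 4.97% of all tested genes. The A498 estimate of IFIT1 with siRNA #2 is one marked as failed. Among the genes with at least 1 FPKM in each line, 15 of 30 members lay above in 786-O, against 18.9% of all such genes, and 9 of 30 in both lines, against 6.91%.

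The genes that lay above in both lines mostly have long transcripts, and transcript length moved with the change of all genes. The tested genes with a known length were divided into 3 classes of equal size by it, with bounds at 1288.5 and 2597 bases. This division was made after the data had been seen. Length was the median over a gene's annotated GENCODE coding transcripts, not that of the RefSeq entries counted, so single genes can be misplaced. By this measure IRF1 (501.5 bases) and IFI44 (686 bases) are in the short class. In A498 the median log2 change of all tested genes was -0.01 in the short and 0.04 in the long class, and that of the members was -0.02 (13 genes) and 0.15 (17 genes). All 17 long members were above 0 in A498, and 5 of 13 short ones. In 786-O the medians were -0.0033 and 0.02 for all tested genes and 0.08 and 0.15 for the members, with 16 of 17 long and 10 of 13 short members above 0. The part of transcript length or of RNA quality in the change was not tested.

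**Figure D5:**
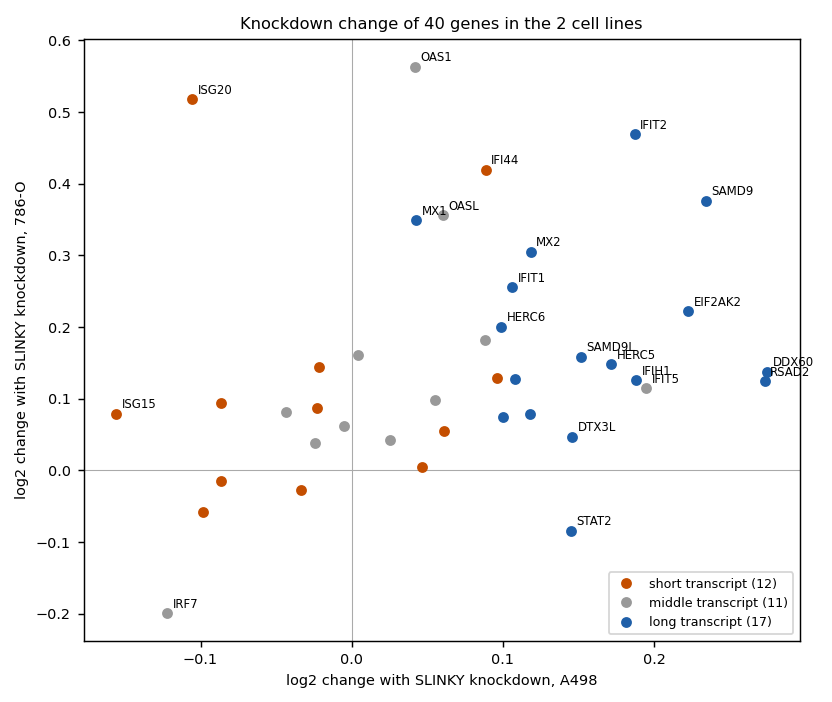
log2 change with SLINKY knockdown in A498 (x axis) and in 786-O (y axis) for 40 of the tested genes (IFITM3 not drawn). Colours give the class of median annotated transcript length, which can misplace single genes. IFIT2, SAMD9 and EIF2AK2 lie up in both lines, OAS1 and ISG20 high on the 786-O axis alone, and the long-transcript genes to the right of 0 on the A498 axis; none of these changes passed the test for a single gene.

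The SLINKY siRNAs were also taken apart, each over both lines against the shared NTC libraries. For siRNA #1, 0 of 41 genes were called, against 0.343% of all tested genes, with a median log2 change of 0.11 and the lowest p in IFIT2 (0.36, SE 0.09, limma adjusted p = 0.205). That median was 0.03 without the 786-O library of siRNA #1. For siRNA #2, 0 of 41 were called, against 0.0286% of all tested genes, with a median of 0.11 and the lowest p in EIF2AK2 (0.30, SE 0.06, adjusted p = 0.200). Between siRNA #2 and siRNA #1, 0 of 41 were called, against 0.371% of all tested genes, with a median difference of 0.02, which was -0.065 without the A498 library of siRNA #1 and -0.024 without that of siRNA #2. Without the 786-O library of siRNA #1 it was 0.091, and without that of siRNA #2 it was 0.044. IFIT3 (0.25, SE 0.06, 95% interval 0.11 to 0.39, adjusted p = 0.193) and IFI6 (-0.25, SE 0.06, 95% interval -0.39 to -0.10, adjusted p = 0.242) had the lowest p.

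Of the other genes of the pathway only MYD88, the adaptor of Toll-like and interleukin receptors, was called in any knockdown comparison. It was at 15.0 and 13.9 FPKM in the A498 NTC libraries, 10.7 with siRNA #1 and 14.9 with siRNA #2, and in 786-O at 5.92 and 6.34, then 4.60 and 6.82. MYD88 was lower with siRNA #1 (log2 change -0.42, SE 0.06, limma adjusted p = 0.0360) and higher with siRNA #2 than with siRNA #1 (0.52, SE 0.07, adjusted p = 0.0219), and siRNA #2 itself gave no call. The MYD88 calls were not stable. Among the alternatives, the replicate block sets each siRNA against the same-numbered NTC libraries, a pairing that no label states. Of 18 alternatives each, 6 kept the first (adjusted p 0.0209 to 0.592) and 7 the second (0.0141 to 0.370), and with the replicate block the adjusted p was 0.149 and 0.346. Without the second A498 NTC library, the second 786-O NTC library or any 1 of the 4 knockdown libraries both calls were lost, and without the first A498 NTC library the first was lost (adjusted p 0.0604). The 5 tested genes listed as interferon gamma-type targets had positive changes over both lines, with a median of 0.29, and none was called. Of all tested genes 55.2% were above 0, with a median of 0.01. The largest of the 5 were CXCL10 (0.36) and CXCL11 (0.34), tested only through A498. In 786-O they rested on 7 to 13 and 6 to 10 reads a library. IFNB1 was tested only through its level in A498, and its change was 0.09 over both lines and 0.23 within A498 (SE 0.12, limma adjusted p = 0.808), where both knockdown libraries lay above both NTC libraries. IFNL3, too low to be tested, was at 0.383 and 0.347 FPKM in A498 with NTC (8 and 5 reads), 1.08 with siRNA #1 (15 reads) and 1.42 with siRNA #2 (14 reads). Its near-identical copy IFNL2 was at 0.425 and 0.513 FPKM with NTC, 0.692 with siRNA #1 and 0.599 with siRNA #2, and reads shared by the pair can be split between them. The changes of the receptors lay between 0.02 and 0.05.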

How the data were processed

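RNA-seq libraries of A498 and 786-O cells were examined as FPKM values that the authors deposited for each library. Per the submitters' processing notes, reads were mapped to hg19 with TopHat2 2.0.0 and FPKM was computed with Cufflinks 2.0.2, which divides reads between overlapping entries; no scaling between libraries is stated. Each file holds 75378 entries. Of 35951 coding RefSeq entries, 97.7% received a current symbol, and their FPKM was summed per symbol. Because a library's interval widths give the reads of entries standing alone (whole within 0.02 for 74.8% to 77.1% of low entries), depth was estimated, but no count model was fitted, since overlapping entries hold divided reads. 

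Genes with a mean of at least 1 FPKM were tested with limma 3.58.1 (R 4.3.3) on log2(FPKM + 0.1) with a variance trend and Benjamini-Hochberg adjustment at 0.05; fold changes on this scale understate those of low genes. The siRNAs were the replicates of the knockdown. Python 3.11.15 did the remaining steps. The members and lists were chosen with earlier results of these data known. All members were accounted for; full statistics were given for members called in a knockdown comparison, the 8 largest changes over both lines, the 10 largest line differences and the IFIT, OAS, MX and IFITM families. Alternatives were the pseudocount, the filter, scaling, the choice of entries, the variance trend, a replicate block and leaving out each library. A gene of the pathway lists is not reported here.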

Additional observations from a re-analysis of the deposited data

How the results depend on the processing

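The added values and filters, scaling by median ratios, the choice of entries, the variance trend, the replicate block and the omission of each library were tried for every comparison. In the 7 knockdown comparisons, 2 of 125 fits called any of the members. Both were within A498 and both called IFITM3 by its coding entry, so the number of members called there without 1 library was 0 to 1. The 40 calls between the lines stayed between 38 and 43, with 41 under the replicate block, except with at least 1 FPKM in each line, where 30 of 30 were called. Of 998 further fits of named genes, 968 kept direction and side of the threshold, none lost a call, 5 gained one in the same direction and 25 turned direction, none of these from a called value. The gained calls and 1 of the turned values that was called belong to IFITM3.

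With 1 library left out, the change over both lines ran from -0.11 to 0.046 for IFITM1, -1.06 to 1.29 for IFITM3 and -0.0052 to 0.26 for OAS2. Within A498 it ran from -0.11 to 0.12 for IFIT3, -0.16 to 0.091 for IFITM1, -0.13 to 0.086 for IFITM2, -2.64 to 3.22 for IFITM3, -0.050 to 0.14 for MX1, -0.036 to 0.12 for OAS1, -0.0066 to 0.18 for OAS2 and -0.0091 to 0.13 for OASL. Within 786-O it ran from -0.22 to 0.17 for IFITM1, -0.00088 to 0.00238 for IFITM3 and -0.14 to 0.51 for OAS2. Within A498, IFIT3 was also at -0.013 with scaling by median ratios and -0.087 with the highest entry per gene, and IFITM3 at -0.043 with noncoding entries added.

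The median log2 difference of the genes between the lines was 3.48; with 1 FPKM added it was 3.02, with 0.01 FPKM added 3.59, without a filter 3.36, with the highest entry per gene 3.36 and with at least 1 FPKM in each line 3.05. Leaving out 1 library moved the knockdown median to 0.024 to 0.12 within A498, to 0.079 to 0.18 within 786-O, that of the difference between lines to between -0.13 and -0.0044, that of siRNA #1 over both lines to 0.025 to 0.16, and that of siRNA #2 against siRNA #1 to between -0.065 and 0.091. The spread between libraries of the median of the genes (SD within groups, log2 scale) was 0.05.

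In the counts of single libraries, 1 FPKM added gave 4 higher for siRNA #1 and 0 for siRNA #2 in 786-O, and 0.01 FPKM added gave 1 lower for siRNA #2. Without a filter 1 and 2 genes were lower in A498 for siRNA #1 and #2, and a filter at 5 FPKM gave 0 higher for siRNA #1 and 0 lower for siRNA #2, as did adding the noncoding entries. With the highest entry per gene 2 and 2 were lower in A498 and 2 and 3 in 786-O. At least 1 FPKM in each line left 0 and 1 higher and 0 lower in A498, and 4 and 4 higher in 786-O. Leaving out 1 NTC library gave 0 to 1 lower for siRNA #2 in A498 and 0 to 1 lower for each siRNA in 786-O.

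Deviations of same-numbered libraries correlated at 0.25 in A498 and -0.03 in 786-O, and the main fits used no pairing. In the knockdown libraries the number is that of the siRNA. The replicate block therefore sets siRNA #1 beside the first NTC library and siRNA #2 beside the second. No label states such a pairing. Within A498 the replicate block raised the number of genes with an unadjusted limma p under 0.05 from 639 to 1128. The number called there was 3 with and without it. With the replicate block no member was called in a knockdown comparison, and the median over both lines stayed at 0.11. The calls over all tested genes went from 36 to 6 for siRNA #1 and from 39 to 0 for siRNA #2 against siRNA #1. In those fits the block compares each siRNA with the same-numbered NTC libraries alone, so the lost calls do not check for a batch. Between the NTC libraries of the lines the correlation was -0.26; with the 786-O numbers crossed, a choice made after seeing the data, 9022 genes were called in place of 8718. At the depth of the 786-O libraries, MX2 rested on 5 to 15 reads a library.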

Other observations

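The files also hold lncRNA entries, and 20 of them lie over or within 5 kb of one of the genes. Of these, 7 had a mean of at least 0.5 FPKM, and in all 7 every A498 library was above every 786-O library, as it was in 30.1% of all 3601 lncRNA entries at that level. An entry that spans OAS1, OAS3 and OAS2 (chr12:113345433-113455556, hg19) was at 0.909 to 1.04 FPKM in A498 and 0.0551 to 0.0709 in 786-O. An assembled entry just outside IFIH1 (chr2:163175544-163176543, hg19) was at 7.80 to 13.0 FPKM against 0.914 to 3.53, and an entry near SP110 (chr2:230990026-231032210, hg19) at 1.10 to 1.75 against 0.00810 to 0.0874. The kit does not mark strand, so reads of such an entry and of an overlapping gene cannot be told apart. These entries were chosen after their values were seen, and their differences were not tested.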
